A study of Mus musculus with 22 samples.

Results

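The 42 genes described here carry the machinery of the cell cycle: the licensing and firing of replication origins, the supply of nucleotides and copying of DNA, the entry into S phase, the entry into and exit from mitosis, and the chromosomes and spindle. They were chosen by name, and all 42 were found among the 34047 genes of the RNA-seq count table. Their mRNA was followed in conventional dendritic cells (cDCs), the antigen-presenting cells that prime T cells, sorted from the spleen and the mesenteric lymph nodes (MLN) of mice homozygous for the Tbx21RFP-cre knock-in, in which red fluorescent protein (RFP) reports the transcription factor T-bet. Animals of both sexes, 6 to 10 weeks old, carried this allele in every group, no group was treated, and each RNA library pooled the cells of 2 mice.

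Cells negative for CD3, CD90, CD64 and Ly6C, among other markers, and positive for CD11c and MHCII were divided into cDC1s (XCR1+CD11b-) and cDC2s (CD11b+XCR1-), and the cDC2s into RFP+ (T-bet+) and RFP- (T-bet-) cells. One sentence of the study's methods exchanges RFP+ and RFP-. The sample labels were followed here, and Tbx21 itself was higher in the libraries labelled T-bet+. RNA-seq comprised 3 libraries per subset from spleen and, from MLN, 3 of cDC1s, 2 of T-bet+ and 2 of T-bet- cDC2s. Chromatin accessibility (ATAC-seq) was measured in 2 spleen libraries of each subset. The sort gate kept every MHCII+ cell, so that cells which had migrated into the lymph node with raised MHCII could enter the MLN libraries. The RNA libraries were made in 1 experiment, so the p-values below measure the spread between libraries.

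A cell that divides copies its genome once in S phase and separates the copies in mitosis. MCM helicases are loaded on origins in G1 and fired in S phase, and the transcripts of this first wave are switched on by E2F factors. The transcripts of cyclin B, PLK1 and the spindle proteins form a later wave in G2 and mitosis whose promoters often carry CCAAT boxes, bound by the activator NF-Y, and CHR elements, through which the DREAM complex holds them down in resting cells. Conventional DCs arise from precursors that seed lymphoid organs and still divide there, and differentiated cDCs divide for a limited time. In a bulk library, fewer dividing cells and less of a transcript in each cell cannot be told apart.

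Depth was similar across libraries, with 20993220 to 29006549 reads on genes. Values are read counts scaled to library size (CPM), scaled between libraries by the trimmed mean of M-values, and are given in the order of the replicate numbers. Differences are log2 fold changes with their standard errors from edgeR's quasi-likelihood test, and a gene was called at an adjusted p under 0.05 over all genes tested. A few libraries stood apart. In spleen, cDC1 replicate 3 and T-bet- replicates 1 and 2 had low values for genes with a GC-rich stretch (Spearman's rho of a gene's deviation with the GC content of its richest 100-base window, -0.308, -0.459 and -0.300, against 0.188 to 0.321 in the other 6 libraries). In 5 of the 42 members, Ccna2, Mcm6, Cdt1, Ccne1 and Foxm1, whose stretches are at least 78.0% GC, these libraries lay below the other libraries of their groups. E2f1, Rrm1 and Mki67, at 85.0%, 82.0% and 80.0% GC, did not show that order. Single libraries also stood out across the members. In spleen, T-bet+ replicate 2 was the highest of its group for 36 of 42 members and T-bet+ replicate 3 the lowest for 35. T-bet- replicate 3 was the lowest of its group for 30. In MLN, cDC1 replicate 1 was the highest of its group for 38 of 42 members, T-bet+ replicate 1 for 41 and T-bet- replicate 1 for 36. The 6 genes of mature migratory DCs summed to 4270 CPM in that cDC1 library and 15580 and 15070 in the other two, and to 2998 CPM in that T-bet+ library and 11320 in its partner, but to 12480 and 13530 CPM in the T-bet- libraries.

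Promoters were compared because the members divide into transcripts of an early and a late wave. RefSeq promoters of build GRCm38.p6, from 250 bases before to 50 after the start of each gene, were matched for 33 of 42 members. Those of Aurkb, Ccna2, Ccne2, Foxm1, Gins2, Kif20a, Mcm4, Stmn1 and Tpx2 were not matched. 5 promoters are shown, of the 3 matched genes with the lowest adjusted p between spleen cDC2 subsets (Plk1, Ccnb2 and Ube2c), of a licensing gene that did not pass that test (Mcm5), and of the nucleotide gene that did (Rrm2). Capitals mark E2F elements (TTTCCCGC, TTTGGCGC, TTTCGCGC or TTTGCCGC), CHR elements (TTTGAA or TTCGAA) and CCAAT boxes (CCAAT), each on either strand, and the 250 bases before the start are given 5′ to 3′.
Plk1 promoter, chr7:122159185-122159434, plus strand: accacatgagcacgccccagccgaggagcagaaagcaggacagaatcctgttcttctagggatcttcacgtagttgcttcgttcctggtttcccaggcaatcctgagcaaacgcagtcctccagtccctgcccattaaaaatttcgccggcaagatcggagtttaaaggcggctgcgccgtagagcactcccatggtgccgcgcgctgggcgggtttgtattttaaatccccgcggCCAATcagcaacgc
Ccnb2 promoter, chr9:70421555-70421804, minus strand: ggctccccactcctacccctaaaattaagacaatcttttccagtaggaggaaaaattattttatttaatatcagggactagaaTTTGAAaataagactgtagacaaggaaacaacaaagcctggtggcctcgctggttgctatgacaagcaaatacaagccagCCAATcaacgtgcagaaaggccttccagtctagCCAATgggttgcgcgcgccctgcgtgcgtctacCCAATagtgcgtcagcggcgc
Ube2c promoter, chr2:164769679-164769928, plus strand: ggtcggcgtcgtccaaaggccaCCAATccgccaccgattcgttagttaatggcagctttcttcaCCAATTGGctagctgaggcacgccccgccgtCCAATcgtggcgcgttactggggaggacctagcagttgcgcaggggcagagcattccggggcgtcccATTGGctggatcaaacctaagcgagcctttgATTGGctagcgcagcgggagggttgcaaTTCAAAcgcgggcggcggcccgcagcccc
Mcm5 promoter, chr8:75109259-75109508, plus strand: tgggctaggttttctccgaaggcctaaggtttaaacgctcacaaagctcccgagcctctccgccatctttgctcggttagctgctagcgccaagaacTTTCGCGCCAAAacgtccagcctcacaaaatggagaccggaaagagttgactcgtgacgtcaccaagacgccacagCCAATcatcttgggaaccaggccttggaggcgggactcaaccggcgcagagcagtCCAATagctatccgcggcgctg
Rrm2 promoter, chr12:24708004-24708253, plus strand: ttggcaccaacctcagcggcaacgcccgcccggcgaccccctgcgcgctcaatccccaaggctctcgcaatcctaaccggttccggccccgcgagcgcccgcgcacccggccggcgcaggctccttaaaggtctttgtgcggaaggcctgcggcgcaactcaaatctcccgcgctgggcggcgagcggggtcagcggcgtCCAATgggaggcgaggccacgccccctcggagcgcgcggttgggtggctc

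The Plk1 promoter held 1 CCAAT box and no CHR element in these bases. The CHR element counted for Plk1 below lay in or reached into the 50 bases after the start, or lay in another promoter entry. The Ccnb2 promoter held 1 CHR element and 3 CCAAT boxes in these bases, and that of Ube2c held 1 CHR element and CCAAT boxes on both strands, a pair of which overlap. The Mcm5 promoter held E2F elements that overlap on opposite strands and 2 CCAAT boxes, and the Rrm2 promoter showed 1 CCAAT box. The promoters of Mcm3, Kif23 and Cenpe, picked by the same rule, are not shown. In these bases that of Mcm3 held CCAAT boxes and no E2F element. Those of Kif23 and Cenpe held a CCAAT box and no CHR element. Over all 300 bases, an E2F element of these spellings lay in 8 of 33 members (24.2%) and in 2.26% of 32851 promoters. In licensing genes 6 of 8 held one (Cdc6, Cdt1, Mcm3, Mcm5, Mcm6 and Mcm7), in chromosome and spindle genes 0 of 11. A CHR element lay in 17 of 33 members (51.5%) and in 19.2% of all promoters. Mitosis genes held one in 6 of 7 cases and chromosome and spindle genes in 8 of 11, licensing genes in 3 of 8. CCAAT boxes lay in 26 of 33 members (78.8%) and in 37.4% of all promoters. A member was counted if any promoter entry of the gene matched, whereas the 32851 are single entries. The shares of members and of all promoters are thus in unlike units. Each match describes letters in a window, and other spellings were not searched.

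Per kilobase of exon, the most abundant member on average over the 6 groups was Pcna, the sliding clamp of the replication fork, at 43.3 CPM per kb. Stmn1, encoding stathmin, which destabilises microtubules, followed at 40.7 CPM per kb, with the helicase subunits Mcm3 (39.6 CPM per kb), Mcm5 (36.2 CPM per kb) and Mcm7 (26.5 CPM per kb) next. The lowest were the kinetochore protein gene Cenpf at 0.854 CPM per kb, the cyclin E1 gene Ccne1 at 1.14 CPM per kb and Foxm1, encoding a transcription factor of mitotic genes, at 1.55 CPM per kb. All 42 members passed the filter on low counts in every fit. Summed over the 42 members, spleen T-bet+ cDC2s read 2732.3, 3370.3 and 2388.9 CPM, spleen cDC1s 2339.9, 2512.9 and 2181.7 CPM and spleen T-bet- cDC2s 1701.6, 1501.5 and 1187.4 CPM. T-bet- libraries thus lay below every other spleen library. In MLN the sums were 3190.5 and 1777.2 CPM in T-bet+ cDC2s, 2223.8, 1348.1 and 1150.6 CPM in cDC1s, and 1441.0 and 1086.0 CPM in T-bet- cDC2s, and cDC1s overlapped both other subsets.

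**Figure D1:**
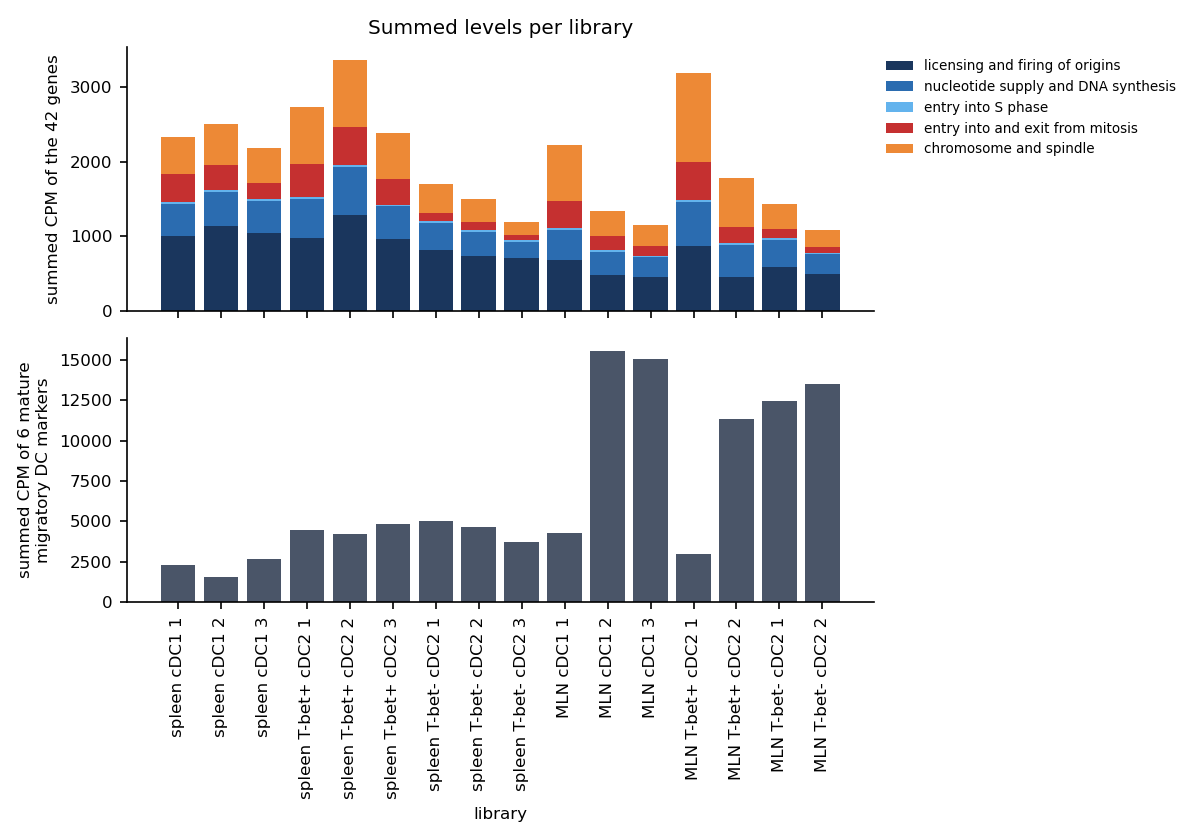
Upper panel, summed CPM of the 42 members in each of the 16 RNA libraries, stacked by role (colours). Lower panel, summed CPM of 6 mature migratory DC markers in the same libraries; both vertical axes are in CPM and start at 0, and each bar is 1 library. The mitosis genes sum to between 336 and 519 CPM in spleen T-bet+ libraries and between 72.4 and 108 CPM in T-bet- libraries, and replicate 1 of MLN cDC1s and T-bet+ cDC2s is high in the upper panel and low in the lower.

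The first comparison asked how the 2 cDC2 subsets of the spleen differ. T-bet+ cDC2s had 15 of 42 members higher and 0 lower, where 1.95% of the 14377 genes tested were higher and 3.44% lower. The median member differed by 1.32 on the log2 scale, and the median of all genes by -0.01. In 31 of 42 members every T-bet+ library lay above every T-bet- library (13.1% of all genes), and in 1, E2f1, every one lay below. The members called differed by role. Mitosis genes were higher in 8 of 10 cases (median difference 2.42), chromosome and spindle genes in 6 of 14 (1.52), nucleotide and DNA synthesis genes in 1 of 5 (0.84), licensing genes in 0 of 10 (0.43) and S phase entry genes in 0 of 3 (-0.08).

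**Figure D2:**
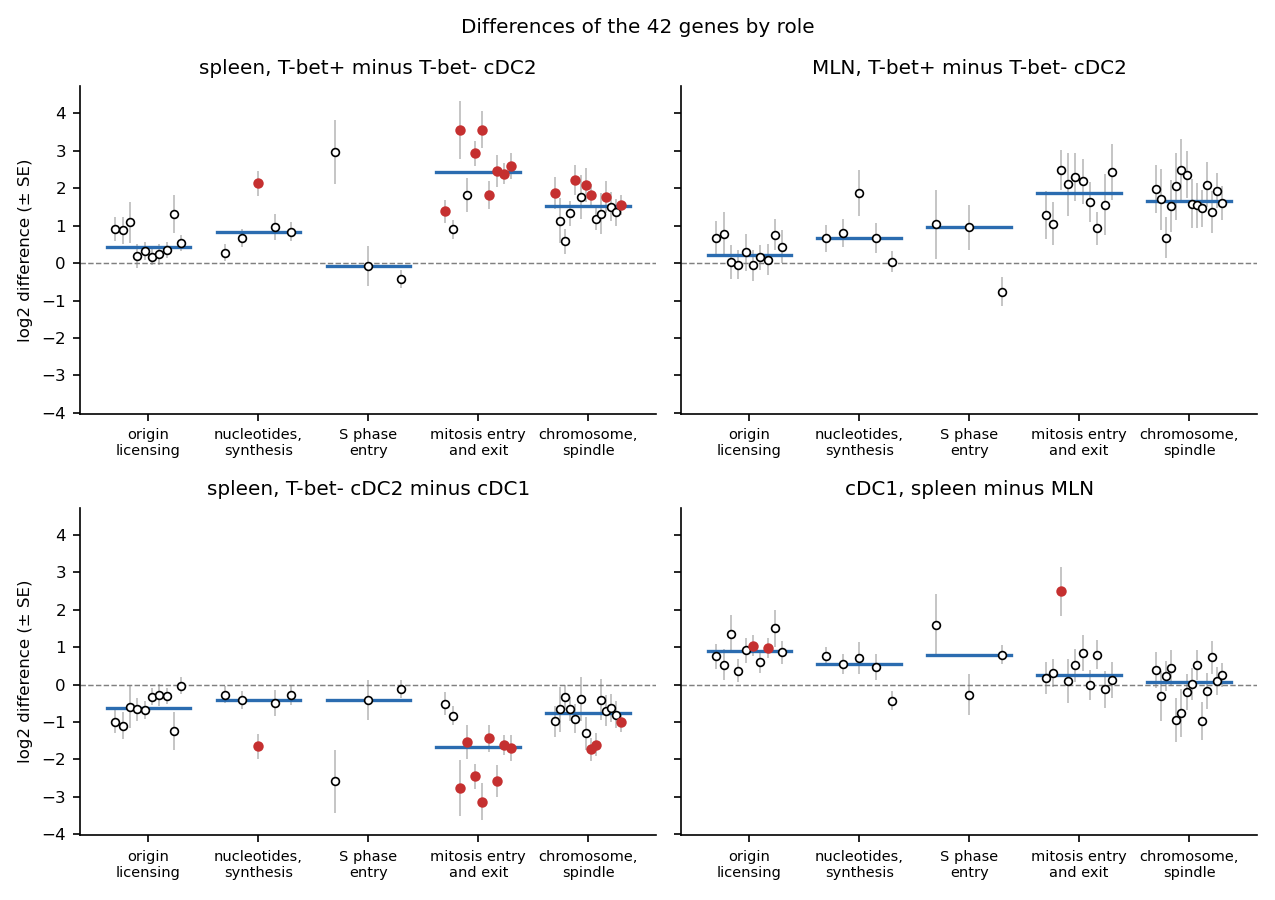
Log2 differences of the 42 members by role in 4 comparisons (vertical axes, log2 difference with its standard error; each point, 1 member; filled points, adjusted p under 0.05; blue lines, medians of a role). In the spleen T-bet+ against T-bet- panel 14 of 15 filled points lie among mitosis and spindle genes, the MLN panel has none, and in the cDC1 panel the licensing genes lie above 0.

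Cyclin B2, a partner of the mitotic kinase CDK1, was among the mitosis genes that separated the subsets. Ccnb2 (chr9:70407692-70421547, minus strand), whose promoter is printed above, read 70.2, 85.1 and 56.6 CPM in spleen T-bet+ libraries, 9.54, 10.95 and 7.25 CPM in T-bet- libraries and 64.5, 57.2 and 30.2 CPM in cDC1 libraries. T-bet- libraries thus lay below all others with no overlap. The T-bet+ level was 7.65-fold the T-bet- level (log2 2.93 ± 0.34, adjusted p = 0.00140 by edgeR's quasi-likelihood test). Plk1 encodes the polo-like kinase that drives entry into mitosis, and read 28.8, 30.3 and 22.1 CPM in T-bet+ libraries against 6.41, 4.52 and 4.65 CPM in T-bet- libraries. No library of one subset reached the other (log2 2.39 ± 0.27, adjusted p = 0.00123, edgeR). Ube2c encodes the E2 enzyme of the anaphase-promoting complex, which marks cyclin B for destruction, and read 59.6, 68.6 and 48.3 CPM against 10.0, 13 and 6.12 CPM. Its groups also stood apart (2.60 ± 0.35, adjusted p = 0.00272, edgeR). Cdc20, an activator of the same complex, read 52.7, 53.2 and 44.2 CPM against 2.41, 5.35 and 4.95 CPM (3.56 ± 0.50, adjusted p = 0.00395, edgeR). It was chosen for display after its values were seen. Exons of Ube2c, Cdc20, Kif20a, Ccna2 and Nusap1 overlap those of a neighbouring gene of the table, and the strand setting of the counting is not given in the sources used here, so reads of each pair may be mixed.

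Cdk1, the kinase that cyclins A and B activate, read 44.1, 51.5 and 33.3 CPM in T-bet+ cDC2s and 16.7, 14.03 and 6.19 CPM in T-bet- cDC2s (1.81 ± 0.37, adjusted p = 0.0219, edgeR). Ccna2, encoding cyclin A2 of S phase and G2, read 53.7, 67.7 and 39.1 CPM against 1.93, 4.32 and 7.33 CPM, with cDC1 libraries at 44.7, 43.3 and 5.13 CPM. The 3 spleen libraries low for GC-rich genes were the 3 lowest of the spleen for Ccna2. Its difference of 3.56 ± 0.77 (adjusted p = 0.0291, edgeR) became 2.22 with that library class as a term and was then not called (adjusted p = 0.0562, edgeR). Foxm1 (2.46 ± 0.43, and 2.05 with the class term, where it was still called) and Aurka, the centrosomal Aurora kinase (1.38 ± 0.31), were also called. Ccnb1, encoding cyclin B1, read 20.9, 34.8 and 19.9 CPM against 11.6, 6.79 and 3.02 CPM, and was not called although its groups stood apart (1.82 ± 0.46, adjusted p = 0.0516, edgeR). The same held for Aurkb, the Aurora kinase of the chromosomal passenger complex, at 0.90 ± 0.26 (adjusted p = 0.0794, edgeR).

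**Figure D3:**
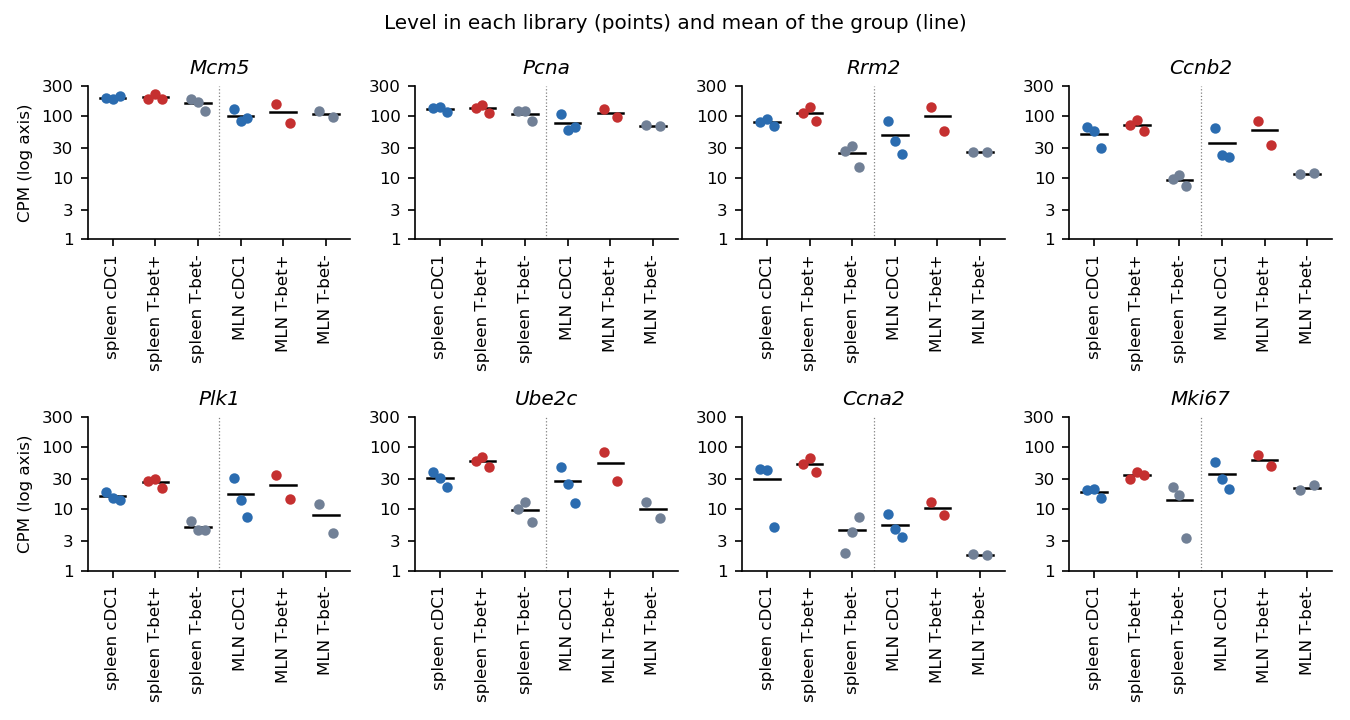
CPM of 8 members in every RNA library (vertical axes, CPM on a log scale; horizontal axes, subset within tissue; points, libraries; lines, group means). Ccnb2, Plk1 and Ube2c are low in all 3 spleen T-bet- libraries, whereas Mcm5 and Pcna overlap between the spleen cDC2 subsets.

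Of the chromosome and spindle genes, Kif20a, a kinesin of the central spindle, read 25.8, 40.1 and 23.9 CPM in T-bet+ libraries against 9.10, 10.5 and 5.97 CPM in T-bet- libraries (1.81 ± 0.31, adjusted p = 0.0108, edgeR). Tpx2, which brings Aurora A to spindle microtubules, read 57.8, 64.9 and 43.0 CPM against 23.2, 20.2 and 13.4 CPM (1.55 ± 0.27, adjusted p = 0.0108, edgeR). Cenpe, the kinetochore motor, read 16.4, 23.8 and 14.8 CPM against 5.88, 3.34 and 2.64 CPM (2.22 ± 0.40, adjusted p = 0.0122, edgeR). In all 3 genes the subsets did not overlap. Birc5, encoding survivin of the chromosomal passenger complex, read 73.9, 70.9 and 55.5 CPM against 21.6, 26.5 and 7.33 CPM (1.86 ± 0.43, adjusted p = 0.0385, edgeR). Kif11, the kinesin that separates spindle poles (2.09 ± 0.45), and Nusap1, which bundles spindle microtubules (1.77 ± 0.43), were called as well. Mki67, the proliferation antigen Ki-67 that coats mitotic chromosomes, read 30.9, 39.9 and 34.9 CPM in T-bet+ cDC2s against 22.5, 16.8 and 3.36 CPM in T-bet- cDC2s. Its groups did not overlap, but it was not called (1.32 ± 0.54, adjusted p = 0.230, edgeR). Top2a, the topoisomerase that untangles sister chromatids, read 104, 139 and 81.6 CPM against 63.1, 36.9 and 27.2 CPM and likewise missed the threshold (1.35 ± 0.37, adjusted p = 0.0726, edgeR). Stmn1 read 145, 172 and 128 CPM against 55.7, 77.6 and 23.9 CPM, also apart and not called (1.5 ± 0.39, adjusted p = 0.0568, edgeR).

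The replication genes were closer between the cDC2 subsets. Rrm2, encoding the small subunit of ribonucleotide reductase that limits dNTP supply in S phase, was the exception at 108.5, 135 and 80.7 CPM in T-bet+ libraries against 27.2, 32.5 and 14.7 CPM in T-bet- libraries (2.13 ± 0.33, adjusted p = 0.00658, edgeR). Rrm1, the large subunit of the same enzyme, read 120, 161 and 105 CPM against 101, 76.5 and 64.7 CPM, apart but not called (0.68 ± 0.24, adjusted p = 0.162, edgeR). Mcm5, whose promoter is printed above, read 187, 225 and 182 CPM against 185, 166 and 119 CPM, and Pcna 130, 149 and 111 CPM against 119, 120.5 and 81.8 CPM. Both overlapped, with differences of 0.34 ± 0.21 and 0.28 ± 0.22. Mcm2, another subunit of the helicase, overlapped as well, at 98.3, 134 and 102.5 CPM against 106, 89.4 and 74.0 CPM (0.32 ± 0.23). Differences of the 10 licensing genes ran from 0.17 for Mcm3 to 1.31 for Mcm6, all of them positive, and Mcm6, with its GC-rich stretch, read 191, 270 and 189 CPM in T-bet+ libraries and 40.8, 63.3 and 158 CPM in T-bet- libraries. Ccne1, encoding cyclin E1, which with CDK2 starts S phase, was at 10.9, 5.33 and 6.15 CPM against 0.145, 0.668 and 2.00 CPM (2.96 ± 0.85, adjusted p = 0.0844, edgeR), and its paralog Ccne2 did not separate (-0.08 ± 0.54). E2f1, an activator of S phase genes, was the lower one, at 13.2, 10.2 and 12.6 CPM against 15.1, 17.6 and 15.6 CPM (-0.42 ± 0.24, adjusted p = 0.393, edgeR).

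Calls in this comparison depended on single libraries, most of all on T-bet+ replicates 1 and 2. 7 members were called without T-bet+ replicate 1 and 5 without T-bet+ replicate 2 (Ccnb2, Cdc20, Plk1, Rrm2 and Ube2c). Without T-bet+ replicate 3 there were 10, and without T-bet- replicate 2 there were 11. Leaving out T-bet- replicate 1 or 3 gave 15 each, 12 of them the same as at first. With the library class as a term 15 members were called, 13 of them the same, and all 15 members called at first kept a positive sign in every setting run. Markers of other cells also moved with the subsets. 4 monocyte genes summed to 134 to 363 CPM in T-bet- libraries and 5.39 to 7.14 CPM in T-bet+ libraries, and 5 genes of red pulp macrophages to 944 to 1324 CPM and 439 to 516 CPM. 7 erythroid genes summed to 8.20 to 11.6 CPM in T-bet- and 13.03 to 14.03 CPM in T-bet+ libraries, and 6 genes of neutrophils and their progenitors to 65.9 to 102 CPM and 79.8 to 85.8 CPM. 5 cDC1 genes, 3 of them called lower in T-bet+ cDC2s, summed to 218 to 582 CPM in T-bet- and 143 to 238 CPM in T-bet+ libraries. 4 plasma cell genes summed to 52.1 to 78.0 CPM in T-bet- and 34.4 to 50.7 CPM in T-bet+ libraries. Of these only Prdm1 stood apart, at 63.3, 42.05 and 51.9 against 18.8, 23.25 and 13.8 CPM. Jchain, Mzb1 and Sdc1 overlapped. 5 genes of plasmacytoid or precursor DCs summed to 127 to 181 CPM in T-bet- and 98.6 to 126 CPM in T-bet+ libraries, and 5 T cell genes to at most 4.24 CPM in both. The part of such cells in the differences was not tested.

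Set against cDC1s, spleen T-bet+ cDC2s showed 1 member higher and 0 lower, where 9.97% of genes were higher and 8.2% lower. The median member differed by 0.45. The member was Cenpe, at 16.4, 23.8 and 14.8 CPM against 6.76, 10.0 and 5.51 CPM in cDC1s (1.30 ± 0.38, adjusted p = 0.0419, edgeR). Its call was lost whenever any 1 library of the 2 groups was left out, although the groups did not overlap. Mitosis genes had a median difference of 0.46 and chromosome and spindle genes of 0.73, with Plk1 at 0.76 ± 0.26 (adjusted p = 0.0724, edgeR) and Ube2c at 0.91 ± 0.33 (adjusted p = 0.0875, edgeR). For licensing genes the median was -0.05. 8 members were called when the 2 groups alone were fitted and 5 with the library class as a term, so the count of 1 was sensitive to the fit.

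Spleen T-bet- cDC2s were the low subset in this comparison too. 12 of 42 members were lower than in cDC1s and 0 higher, where 6.2% of genes were lower and 9.65% higher. The median member differed by -0.75, all 42 differences were negative, and in 18 members every T-bet- library lay below every cDC1 library (12.8% of all genes). The T-bet- libraries are those of the preceding cDC2 comparison, so both counts rest on the same low values. Mitosis genes were lower in 8 of 10 cases (median -1.66), chromosome and spindle genes in 3 of 14 (-0.75), nucleotide genes in 1 of 5 (-0.42) and licensing genes in 0 of 10 (-0.63).

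Ccnb2, with the values given above, differed by -2.45 ± 0.33 (adjusted p = 9.56e-04, edgeR), or 5.47-fold higher in cDC1s. Cdc20 read 57.4, 38.9 and 15.1 CPM in cDC1s and differed by -3.13 ± 0.49 (adjusted p = 0.00220, edgeR). Plk1 read 18.9, 15.2 and 14.02 CPM in cDC1s, above every T-bet- library (-1.62 ± 0.26, adjusted p = 0.00264, edgeR). Kif20a and Kif23, kinesins of the central spindle and midbody, differed by -1.73 ± 0.31 (adjusted p = 0.00495, edgeR) and -1.61 ± 0.31 (adjusted p = 0.00649, edgeR). Kif23 had its highest spleen mean in cDC1s, with 60.8, 59.9 and 88.2 CPM against 32.1, 17.4 and 19.0 CPM in T-bet- and 48.5, 63.6 and 43.1 CPM in T-bet+ cDC2s. Rrm2 read 78.7, 88.8 and 66.7 CPM in cDC1s and differed by -1.65 ± 0.33 (adjusted p = 0.00736, edgeR). Cdk1 (-1.44 ± 0.36), Tpx2 (-1.01 ± 0.27), Ccna2 (-2.77 ± 0.75) and Ccnb1 (-1.54 ± 0.46) were called with adjusted p from 0.0251 to 0.0474 (edgeR), and Foxm1 and Ube2c completed the 12. Ccna2 overlapped between the groups, through cDC1 replicate 3. The red pulp macrophage genes summed to 104 to 195 CPM in cDC1s and the monocyte genes to 30.7 to 74.8 CPM, both below T-bet- libraries. Ccr2 made up most of the monocyte sum here too, at 24.9, 38.8 and 67.7 CPM in cDC1s. The part of such cells was not tested.

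**Figure D4:**
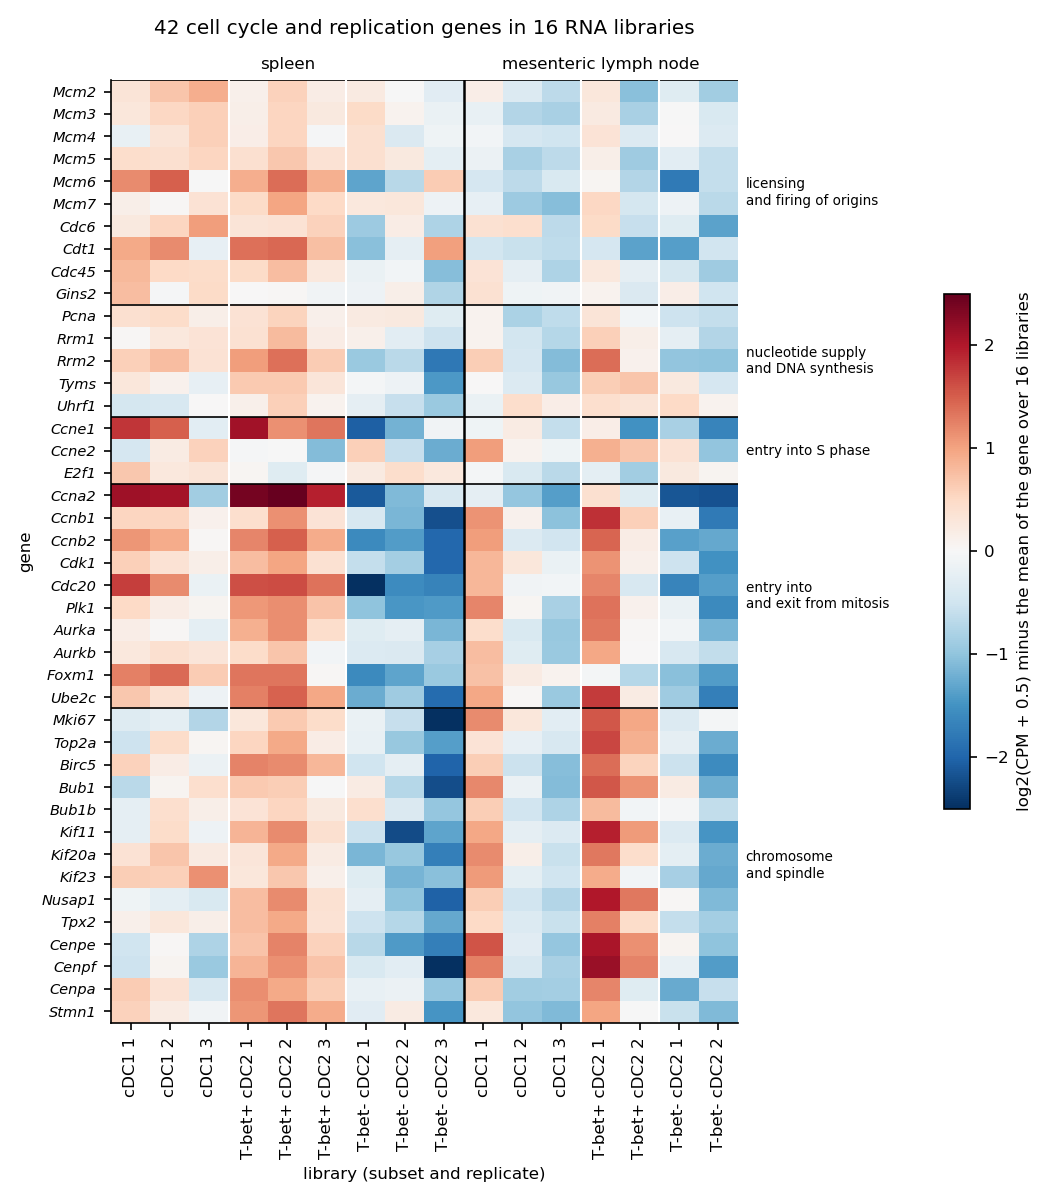
Each of the 42 members (vertical axis, by role) in the 16 RNA libraries (horizontal axis, by tissue, subset and replicate), coloured by log2(CPM + 0.5) minus the mean of the gene over all libraries. The 3 spleen T-bet- libraries are low across mitosis genes, and replicate 1 of MLN cDC1s and of MLN T-bet+ cDC2s is high across the late genes.

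In the MLN no member was called between T-bet+ and T-bet- cDC2s, and neither was any other gene (0% of 15298). The median difference of the members was again 1.32, with 39 of 42 positive. 18 members had an unadjusted p under 0.05, all higher in T-bet+ cDC2s (9.44% of all genes in either direction), and DESeq2 called 8 (Ccna2, Top2a, Kif11, Cdc20, Ccnb2, Nusap1, Ube2c and Tpx2), where it called 2.61% of genes. Both T-bet+ libraries lay above both T-bet- libraries for 29 of 42 members (20.8% of all genes). The median difference by role was 1.86 for mitosis genes, 1.65 for chromosome and spindle genes, 0.67 for nucleotide genes and 0.22 for licensing genes. The comparison rests on 2 libraries against 2, which differed among themselves.

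Ccnb2 read 82.5 and 33.8 CPM in MLN T-bet+ cDC2s, 11.3 and 11.9 CPM in T-bet- cDC2s and 62.0, 23.4 and 21.2 CPM in cDC1s. Both T-bet+ libraries lay above both T-bet- libraries but far from each other, and both lay above 2 of the 3 cDC1 libraries. The difference of 2.29 ± 0.64 between cDC2 subsets was not called (adjusted p = 0.346, edgeR). Ube2c read 83.7 and 28.5 CPM against 12.9 and 7.16 CPM (2.43 ± 0.75, adjusted p = 0.369, edgeR). Top2a read 228 and 132.5 CPM against 61.4 and 30.1 CPM, and its MLN T-bet+ libraries were among the 3 highest of all 16 (1.93 ± 0.47, adjusted p = 0.272, edgeR). Ccna2 read 13.1 and 7.87 CPM against 1.85 and 1.80 CPM and had the lowest adjusted p of the members (2.48 ± 0.54, adjusted p = 0.252, edgeR). Mcm5 read 156 and 75.4 CPM against 117 and 93.1 CPM, the T-bet+ libraries lying on either side of the T-bet- libraries (0.09 ± 0.41).

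Against MLN cDC1s, 0 members were called in T-bet+ cDC2s (6.22% of genes) and 0 in T-bet- cDC2s (5.79% of genes) by edgeR's test. For T-bet+ cDC2s the median difference was 0.56, 5 members had an unadjusted p under 0.05 (22.2% of genes), and DESeq2 called 2, Top2a and Nusap1 (14.4% of genes). Nusap1 read 95.1 and 59.3 CPM in T-bet+ cDC2s against 36.3, 16.8 and 13.95 CPM in cDC1s, without overlap (1.79 ± 0.52, adjusted p = 0.0904, edgeR). Without MLN cDC1 replicate 1, the library low in mature migratory DC genes, 5 members were called higher in T-bet+ cDC2s (Nusap1, Cenpf, Stmn1, Cenpe and Tpx2). With the number in the library name as a replicate block, 9 members were called, all higher in T-bet+ cDC2s (Nusap1, Top2a, Tyms, Tpx2, Birc5, Stmn1, Cenpf, Kif11 and Rrm2). For T-bet- cDC2s the same block called 6, with Cdc20, Foxm1, Ccnb2 and Cdk1 lower and Mcm7 and Mcm3 higher than in cDC1s. Shares over all genes are not given for the block fits or for fits without a library. Their counts therefore have no background beside them. Both T-bet- libraries carry the numbers 2 and 3 in their names, and the 2 libraries named 1 are those low in mature migratory DC genes. Without the block the median for T-bet- cDC2s was -0.58, 5 members had an unadjusted p under 0.05 (19.6% of genes), all lower than in cDC1s, and DESeq2 called 3, Foxm1, Cdc20 and Ccna2 (12.5% of genes). Foxm1 read 12.6, 8.59 and 7.87 CPM in cDC1s, 7.08 and 4.28 CPM in T-bet+ and 3.30 and 2.49 CPM in T-bet- cDC2s, and its difference between T-bet- cDC2s and cDC1s was -1.68 ± 0.43 (adjusted p = 0.0623, edgeR).

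The subset differences were then tested for a change between tissues in a fit of all 16 libraries. No member's T-bet+ to T-bet- difference differed between spleen and MLN (0 of 42 by edgeR's adjusted p, where 0.00595% of genes were called, 1 at an unadjusted p under 0.05 against 5.04% of genes, and 0 by DESeq2 against 0.278%). The same held for T-bet+ cDC2s against cDC1s (0 of 42 with 0.0893% of genes called, 0 unadjusted with 8.48%, and 0 by DESeq2 with 1.6%) and for T-bet- cDC2s against cDC1s (0 of 42 with 0.0357%, 0 unadjusted with 5.9%, and 0 by DESeq2 with 0.758%). With 2 MLN libraries in each cDC2 group these tests have little precision, and they do not show that the differences were equal.

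The same subset was then compared between spleen and MLN, with differences given as spleen minus MLN. Spleen cDC1s had 3 members higher than MLN cDC1s and 0 lower, where 3.93% of 16795 genes were higher and 7.75% lower. The median over members was 0.45, but 0.88 for the 10 licensing genes, 0.25 for mitosis genes and 0.05 for chromosome and spindle genes. Mcm5, the helicase subunit whose promoter is printed above, read 191, 187 and 205 CPM in spleen against 127, 80.3 and 89.8 CPM in MLN, a 1.97-fold difference without overlap (0.97 ± 0.27, adjusted p = 0.0353, edgeR). Mcm3 of the same ring read 176, 206 and 217 CPM against 127, 85.9 and 82.0 CPM (1.03 ± 0.28, adjusted p = 0.0322, edgeR). Both genes separated the tissues. In 7 of 10 licensing genes every spleen cDC1 library lay above every MLN one, in mitosis genes in 0 of 10 and over all members in 9 of 42 (11.7% of all genes). Markers of other cells moved with tissue as well. All 6 mature migratory DC genes and 4 of 5 T cell genes were lower in spleen cDC1s, and 3 of 6 erythroid genes tested were higher. Genes of neutrophils and their progenitors summed to 26.9 to 37.2 CPM in spleen and 0 to 11.45 CPM in MLN cDC1s. Their part in the differences was not tested.

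Ccna2 was the third, at 44.7, 43.3 and 5.13 CPM in spleen cDC1s against 8.36, 4.77 and 3.50 CPM in MLN cDC1s (2.49 ± 0.66, adjusted p = 0.0283, edgeR). With the library class as a term its difference was 0.57 (adjusted p = 0.596, edgeR), and its groups overlapped. All MLN libraries and the 3 spleen libraries low for GC-rich genes belong to 1 class over the 16 libraries. In contrast, Plk1 read 18.9, 15.2 and 14.02 CPM in spleen and 31.5, 13.8 and 7.39 CPM in MLN cDC1s (-0.13 ± 0.49), and Mki67 read 20.01, 21.2 and 14.99 CPM against 58.2, 30.9 and 20.9 CPM (-0.97 ± 0.51, adjusted p = 0.216, edgeR). MLN cDC1 replicate 1 was again high. Without it 13 members were called higher in spleen, Mcm2, Mcm7, Pcna, Rrm2 and Ccnb2 among them, and 0 were called without spleen cDC1 replicate 1 or 2 or without MLN cDC1 replicate 2 or 3. No share over all genes is given for these fits, so the count of 13 has no background beside it. DESeq2 called 9 of 42, near its share over all genes (21.9%).

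In T-bet+ cDC2s no member was called between spleen and MLN, where 1.3% of genes were higher in spleen and 3.79% lower. 6 had an unadjusted p under 0.05 (26.6% of genes) and DESeq2 called 3 (17.2% of genes), Cdt1, Ccna2 and Foxm1. Cdt1, the factor that loads MCM helicases on origins, read 29.6, 30.8 and 19.0 CPM in spleen against 8.05 and 4.05 CPM in MLN (2.13 ± 0.61, adjusted p = 0.0583, edgeR), and is one of the genes with a GC-rich stretch. In T-bet- cDC2s no member was called either, where 1.59% of genes were higher and 4.36% lower. 2 had an unadjusted p under 0.05 (24.5% of genes), and DESeq2 called 1 (14.4% of genes), Uhrf1, which carries DNA methylation through replication. Uhrf1 read 75.2, 59.2 and 45.9 CPM in spleen against 124 and 93.6 CPM in MLN (-0.86 ± 0.27, adjusted p = 0.0778, edgeR). Licensing genes had a median of 0.53 in the T-bet+ and 0.43 in the T-bet- subset, and chromosome and spindle genes of -0.58 and -0.11.

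Chromatin at the starts of the members was examined in spleen ATAC-seq, with reads counted in 150-base windows around peak summits and 7270164 to 10081555 reads in windows per library. 21 of 42 members (50.0%) had a window within 1000 bases of their start, as did 57.0% of protein-coding genes tested in spleen RNA. Of the 117 such windows, 0 differed between T-bet+ and T-bet- cDC2s at an adjusted p under 0.01 and a log2 difference over 0.5 by edgeR's test, where 3.27% of windows near any gene start did. 12 of the 117 had an unadjusted p under 0.05 (16.7% of windows), and DESeq2 called 0 (1.75%). Without T-bet+ replicate 2 edgeR called 3 and without T-bet- replicate 2 it called 2. The window nearest each start differed by a median of 0.12 on the log2 scale, from -0.64 (Plk1) to 0.56 (Bub1b). Any annotated transcript start of a gene was used, so the nearest window was sometimes a weak one. That of Plk1 read 3.37 and 3.97 CPM in T-bet+ and 5.55 and 5.87 CPM in T-bet- libraries. A stronger Plk1 window, at 21.4 and 18.0 against 25.6 and 21.9 CPM, differed by -0.27 ± 0.19. The nearest window of Rrm2 was also weak, and a stronger one differed by 0.13 ± 0.16. The Ccnb2 start, whose mRNA differed 7.65-fold, read 22.2 and 23.3 CPM of window reads in T-bet+ libraries, 25.2 and 19.7 CPM in T-bet- libraries and 19.0 and 20.5 CPM in cDC1 libraries (T-bet+ against T-bet-, 0.02 ± 0.19). Its groups overlapped. Ube2c read 64.6 and 48.5 CPM against 39.3 and 42.5 CPM and had the lowest adjusted p of the nearest windows, above the threshold set (0.47 ± 0.16, adjusted p = 0.0482, edgeR).

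**Figure D5:**
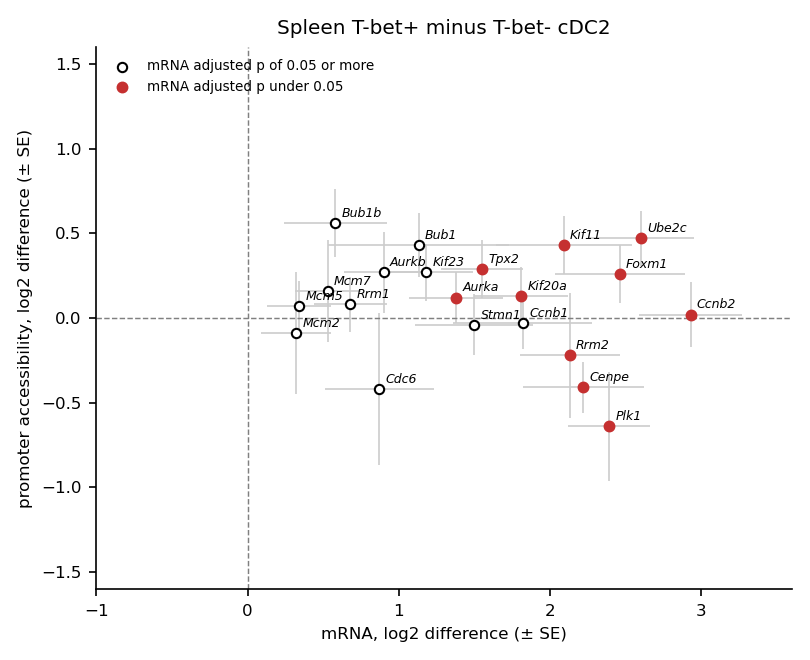
Spleen T-bet+ minus T-bet- cDC2s for the 21 members with an ATAC-seq window near their start, as the log2 difference in mRNA (horizontal axis) and in the window nearest the start (vertical axis), 1 point per member with standard errors and filled where the mRNA passed an adjusted p of 0.05. The mRNA differences reach 2.93, while those of the windows run from -0.64 to 0.56. The windows plotted for Plk1, at -0.64, and Rrm2 hold few reads.

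More windows differed from cDC1s. 17 of 117 were called between T-bet+ cDC2s and cDC1s, a share near the background (17% of windows near any start). 16 of them were higher in T-bet+ cDC2s (12.3% of such windows) and 1 was lower. They lay at 9 members, and 9 were called without cDC1 replicate 1, 5 without cDC1 replicate 2 and 11 without T-bet+ replicate 1. For T-bet- cDC2s 8 of 117 were called, all higher than in cDC1s, where 8.48% of such windows were higher and 12.6% differed in either direction, and they lay at Rrm2, Bub1, Tpx2, Cenpe and Mcm5. Without cDC1 replicate 1 or 2 there were 4 and 3, and without T-bet- replicate 1 there were 2. Bub1, a kinase of the spindle checkpoint, had its nearest window at 12.6 and 12.7 CPM in cDC1s, 28.8 and 25.7 CPM in T-bet+ and 21.6 and 19.0 CPM in T-bet- cDC2s. Both cDC2 subsets lay above cDC1s, by 1.11 ± 0.20 (adjusted p = 6.89e-06, edgeR) and 0.68 ± 0.21 (adjusted p = 0.00817, edgeR). Its mRNA did not follow that order, at 4.98, 8.60 and 11.1 CPM in cDC1s and 9.49, 4.83 and 1.36 CPM in T-bet- cDC2s. Cenpe was more accessible in T-bet- cDC2s, at 97.5 and 80.1 CPM, than in cDC1s, at 56.2 and 43.0 CPM (0.84 ± 0.15, adjusted p = 1.04e-05, edgeR). T-bet+ cDC2s read 65.4 and 68.1 CPM there, and their difference from T-bet- cDC2s was not called (-0.41 ± 0.15, adjusted p = 0.0616, edgeR).

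Other cell cycle genes were counted from lists that hold none of the 42. Of 47 other mitosis genes, 16 were higher in spleen T-bet+ than T-bet- cDC2s and 0 lower (median 1.37). For this list and those that follow, the background was 1.95% of all genes higher and 3.44% lower. Among the 16 was Dlgap5, a spindle protein, at 17.6 ± 2.43 (SD, n = 3) against 3.17 ± 0.398 CPM (SD, n = 3). Of 38 other replication genes 0 were called (median 0.37), and of 15 genes of the DNA damage response 0 (median 0.22). Of 25 tested genes of G1 control and quiescence 5 were higher and 0 lower. Ccnd1, encoding cyclin D1, which with CDK4 and CDK6 carries cells through G1, read 452 ± 58.8 CPM against 151 ± 42.8 CPM (SD, n = 3 each; log2 1.58 ± 0.24, adjusted p = 0.00530, edgeR). Cdkn2b, an inhibitor of those kinases, was also higher, at 11.1 ± 2.55 against 0.602 ± 0.255 CPM (SD, n = 3 each). An activator and a brake of G1 were thus both higher in T-bet+ cDC2s, but not every brake was. Cdkn1a, another inhibitor, read 242, 201 and 148 CPM in T-bet+ libraries against 532, 641 and 273 CPM in T-bet- libraries. It was lower in T-bet+ cDC2s without overlap but was not called by edgeR. DESeq2 called 7 of the 25 genes higher and 1 lower, where it called 600 of the 14377 genes higher and 917 lower.

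Against spleen cDC1s, 8 of 25 G1 genes were higher and 0 lower in T-bet+ cDC2s (9.97% and 8.2% of all genes), and 4 were higher and 2 lower in T-bet- cDC2s (9.65% and 6.2% of all genes). Ccnd2, encoding cyclin D2, read 30.7 ± 8.97 CPM in cDC1s, 250 ± 20.8 CPM in T-bet+ and 119 ± 34.3 CPM in T-bet- cDC2s (SD, n = 3 each), with differences from cDC1s of 3.03 ± 0.29 and 1.96 ± 0.28. Cdkn1a, encoding the inhibitor p21, read 482 ± 189 CPM in T-bet- cDC2s against 69.8 ± 15.2 CPM in cDC1s (SD, n = 3 each; log2 2.79 ± 0.35, adjusted p = 6.08e-04, edgeR). Its T-bet+ libraries also lay above the cDC1 libraries, at 242, 201 and 148 CPM. Of the other mitosis genes, 9 of 47 were lower in T-bet- cDC2s than in cDC1s and 1 higher, and of the other replication genes 1 of 38 was lower. Between tissues, Ccnd2 was lower in spleen than MLN in cDC1s (-3.20 ± 0.33, adjusted p = 3.08e-04, edgeR). The same held in T-bet- cDC2s (-1.85 ± 0.34, adjusted p = 0.00793, edgeR), the opposite direction to the MCM genes. Gins3, one of the 38 other replication genes, was lower in spleen too. Its difference was -1.92 ± 0.42 for cDC1s (adjusted p = 0.0130, edgeR). For the T-bet+ subset it was -1.70 ± 0.45 (adjusted p = 0.0454, edgeR). For the T-bet- subset it was -1.63 ± 0.45 (adjusted p = 0.0487, edgeR). Cdc7 was also called lower for the T-bet+ subset (-1.43 ± 0.36). None of the 38 was called higher in spleen, though their medians were positive (0.3, 0.07 and 0.12 in that order).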

How the data were processed

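RNA-seq of 16 libraries and ATAC-seq of 6 libraries were analysed from the raw counts that the authors deposited, per gene and per accessible window. For RNA the authors aligned reads with HISAT2 (2.1.0) and counted uniquely aligned reads per gene without normalization. For ATAC-seq they aligned with Bowtie2 (2.2.5), called peaks with MACS2 (2.1.1.20160309) on the replicates together and counted reads in 150-base summit windows. The build was mm10 (GRCm38), and versions come from the submitters' processing notes. The strand setting of the RNA counting is not given in the sources used here. Groups were taken from the sample labels. The 2 MLN T-bet- libraries carry the numbers 2 and 3 in their names and replicate numbers 1 and 2 in their labels, and the latter were used. Libraries held 20993220 to 29006549 reads on genes and 7270164 to 10081555 reads in windows, and no pair was identical (0 pairs). There were 0 columns of no sample.

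Counts were filtered with filterByExpr, scaled by TMM and tested with edgeR (4.0.16, R 4.3.3) by its quasi-likelihood test, and p-values were adjusted over all genes or windows by the Benjamini-Hochberg method. Fits held the 3 subsets of a tissue (residual degrees of freedom 6 in spleen and 4 in MLN) or all 16 libraries (10) for tissue and interaction tests. ATAC fits had 3. Standard errors are the log2 difference divided by the square root of F. Thresholds were an adjusted p of 0.05 for RNA, and 0.01 with an absolute log2 difference over 0.5 for windows. CPM per kb used exon lengths of GENCODE M21, in which 19698 of 34047 symbols were found, the 42 members included. The scripts were tested on simulated data.

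The members and gene lists were chosen with earlier results of these data known. Values by library are given for 14 members and, in each comparison, for up to 3 called members of a role with the lowest adjusted p. Cdc20 in the spleen cDC2 comparison, Foxm1, Aurka, Aurkb, Kif11, Nusap1, Rrm1, Mcm6, Cdt1, Uhrf1, Bub1, the other DESeq2 calls and the genes at the ends of a range were added after their values were seen. Alternatives were DESeq2 (1.42.0), its size factors in edgeR, no count filter, the replicate number as a block, a newer dispersion estimate, a term for the library class, each library left out, other sets of libraries in the fit, and for ATAC library size alone, whole peaks and a distance of 250 bases. A crossed block in MLN was added after seeing the data. One sort marker, and a marker list that holds it, are not reported here.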

Additional observations from a re-analysis of the deposited data

How the results depend on the processing

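The 15, 12, 1 and 3 members called in spleen (T-bet+ against T-bet-, T-bet- against cDC1, T-bet+ against cDC1) and between tissues in cDC1s kept their sign in every setting run, but not always their call, and where a count changed the cause was not tested unless named. With DESeq2 the counts were 23 (spleen T-bet+ against T-bet-), 2 (spleen T-bet+ against cDC1), 8, 2 and 3 (MLN T-bet+ against T-bet-, T-bet+ against cDC1, T-bet- against cDC1), 9, 3 and 1 (spleen against MLN for cDC1s, then for the T-bet+ and T-bet- subsets), and 10 and 5 windows (T-bet+ and T-bet- cDC2s against cDC1s). With no filter on low counts they were 24, 2, 19, 7, 7, 7 and 4 in the same order up to T-bet+ cDC2s between tissues. The newer dispersion estimate gave 1 in MLN T-bet- against cDC1, 5 in cDC1s between tissues and 1 in T-bet+ cDC2s between tissues. With the library class as a term 5 members were called in spleen T-bet+ against cDC1 and 1 in MLN T-bet- against cDC1. Fitting the 2 compared groups alone gave 8 in spleen T-bet+ against cDC1, 2 in MLN T-bet- against cDC1 and 4 in T-bet+ cDC2s between tissues, and 1 fit of all 16 libraries gave 0 in spleen T-bet+ against cDC1 and 1 each in MLN for T-bet+ and T-bet- against cDC1. For windows, library size alone gave 1 between the cDC2 subsets, 10 for T-bet+ against cDC1 and 5 for T-bet- against cDC1, a distance of 250 bases (fewer windows) 10 and 5, and whole peaks 7 for T-bet+ against cDC1.

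Leaving out 1 library gave 5 to 15 members in spleen T-bet+ against T-bet-, 0 to 0 in T-bet+ against cDC1, 8 to 13 in T-bet- against cDC1, 0 to 0, 0 to 5 and 0 to 0 in the same MLN comparisons, 0 to 13, 0 to 1 and 0 to 0 between tissues (cDC1s, then the T-bet+ and T-bet- subsets), and 0 to 3, 5 to 13 and 2 to 6 windows (T-bet+ against T-bet-, T-bet+ against cDC1, T-bet- against cDC1). A group left with 1 library was assumed to vary like the others. Shares over all genes are given only where stated above, so counts under the other settings have no background beside them. No member was called in the interaction tests under any setting. For single members, other settings gave 372 values with the same call, 22 newly called and 15 no longer called, and leaving out 1 library gave 203, 5 and 52.

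Replicate numbers as labelled did not pair the libraries throughout. Same-numbered libraries of different subsets correlated from -0.711 to 0.398 in spleen and from -0.150 to 0.639 in MLN. MLN cDC1 and T-bet+ libraries of the same number correlated at 0.639 and 0.595, and those of different numbers from -0.639 to 0.424. These are correlations of deviations from group means. The 2 libraries of an MLN cDC2 group deviate as mirror images, so the values of opposite sign are not separate evidence. The main MLN fits held no block for replicate number. With the replicate block, 12 members were called in spleen T-bet+ against T-bet-, 0 in T-bet+ against cDC1, 11 in T-bet- against cDC1, and 1 and 2 in MLN for T-bet+ and T-bet- against cDC1. A replicate block by the number in the library name gave 9 and 6 there, and libraries of one such number correlated from -0.012 to 0.639 in MLN. Crossing the MLN T-bet- numbers, a choice made after seeing the data, left 0 members called between the cDC2 subsets. Members near 1 CPM, such as Ccne1 in T-bet- cDC2s, rest on few reads.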
